A study of Arabidopsis thaliana with 12 samples.

Results

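The first sampling after induction, day 2, was compared with the untreated culture, day 0, in a Col-0 suspension culture of Arabidopsis thaliana induced to form tracheary elements. The comparison rests on 4 of the 12 arrays of the series, chosen by their labelled day: 2 arrays of day 2 and 2 of day 0. The day 2 cells were labelled as kept at 27 C in a fresh induction medium of MS salts and 3% sucrose with 1 uM brassinolide and 10 mM boric acid, started from 7.5 ml of a 7-day-old culture in 42.5 ml of medium. The day 0 cells were labelled as untreated and kept at 22 C, and the labels list a maintenance medium of MS salts, 3% sucrose and 1 ug/ml 2,4-D, a synthetic auxin. The induction medium as listed holds no 2,4-D. The days thus differ at once in brassinolide, boric acid, auxin, fresh medium, labelled temperature and culture age. Which of these goes with a difference cannot be told apart. All cells came from 1 accession. The labels do not state whether both arrays of a day stem from different flasks, so each p-value reflects array-to-array spread only, and that spread may be technical.

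Tracheary elements are the water-conducting cells of the xylem. A cell on the way to this fate first leaves its earlier growth state, then lays down patterned wall thickenings with cellulose, xylan and lignin, and finally digests its own contents, so that only the wall remains. Brassinosteroids, the steroid hormones of plants to which brassinolide belongs, are known from Zinnia cultures to be needed for the last steps of this fate, and auxin keeps cultured plant cells dividing.

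Each of the 4 arrays is an Affymetrix ATH1 array, on which a gene is read by a set of short probes. The values are signal intensities on a linear scale, as deposited, and the trimmed mean of each array was 100.01. Probe sets entered the test if both day 2 arrays, or both day 0 arrays, reached their own 40th percentile, as 14203 of 22746 did. A signal below that percentile is called dim here. Over the tested probe sets, log2 signals correlated at r = 0.983 between the 2 arrays of day 2 and 0.981 between those of day 0, and at 0.714 to 0.724 between days, as a description over probe sets that share their arrays. Of the 50 markers of xylem, mesophyll, phloem, epidermis, root, guard cells, pollen and dividing cells that were listed to check the cell type, the annotation used here named 2 on the array, EXPA7 of root hairs and FMA of guard cells. Both were dim in all 4 arrays: EXPA7 read 5.66 and 12.1 on day 2, against 6.91 and 7.53 on day 0, and FMA read 15.8 and 6.48 on day 2, against 8.61 and 5.51 on day 0. The cell type could not be checked any further with these markers. In bulk RNA, fewer cells that express a gene and less of its RNA per cell cannot be told apart.

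Day 2 differed from day 0 across most of the measured genes. With limma, 5172 probe sets (36.4%) were higher and 3931 (27.7%) lower on day 2 at an adjusted p under 0.05, which is 64.1% of those tested. Of these, 1944 were at least 2-fold higher and 1658 at least 2-fold lower. A gene name was available for 7678 tested genes, of which 63.2% were called: 2848 (37.1%) higher and 2008 (26.2%) lower, with a median log2 change of 0.09. Most members of the groups below come from the 1025 of these genes that are named by a symbol. Of the 1025, 64.2% were called: 34.2% higher and 30% lower. Some members, AT5G14520 among them, go by their locus here and are not in the 1025. These percentages are the background against which every count of members below is to be read, and a share near them is not a result about a group. Changes below are log2 differences, day 2 minus day 0, given ± the standard error of the limma fit with n = 2 arrays on each day. Where both arrays of a day were dim, only a bound is given: the signals of that day were lifted to the 40th percentile of their array, and the fold between geometric means is then a lower limit, written as at least so many fold.

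**Figure D1:**
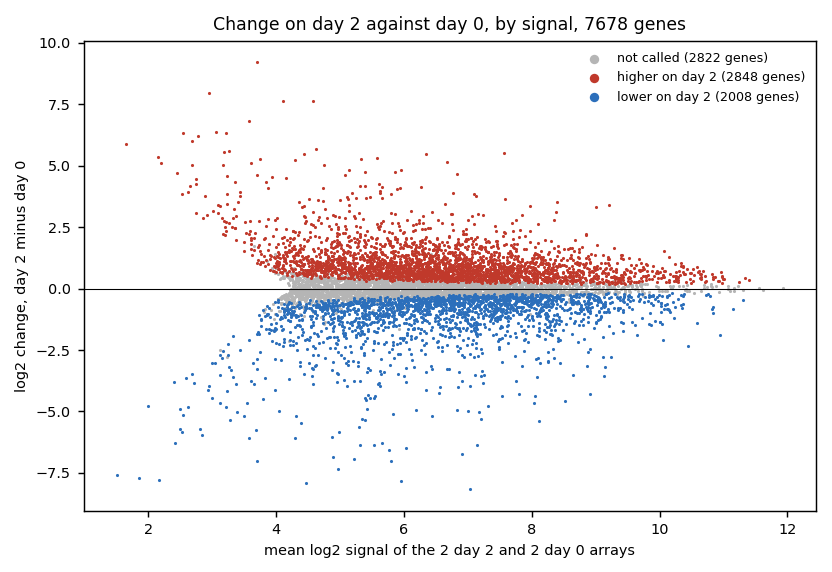
Each point is 1 of 7678 genes, with the mean log2 signal of the 4 arrays on the x axis and the log2 change, day 2 minus day 0, on the y axis; red and blue mark genes called higher (2848) and lower (2008) on day 2, and grey those not called. Calls reached from the dimmest to the brightest genes, and the widest changes lay at low mean signal, where 1 of the 2 days was dim.

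Among genes measured on both days, with no dim array and no overlap between the days, the largest single change was a rise, that of GSTU22, while 9 of the 10 largest rises were smaller than every one of the 10 largest falls. The 10 largest falls ranged in log2 change from -5.39 to -4.36 and the 10 largest rises from 3.30 to 5.54. The deepest fall was that of AT4G34950, which read 42.0 and 43.1 on day 2, against 1885 and 1686 on day 0 (-5.39 ± 0.09, adjusted p = 1.13e-11). AT2G43535 read 67.8 and 83.8 on day 2, against 1914 and 1642 on day 0 (-4.56 ± 0.20). AT4G23590 had the widest standard error of the 10 (22.4 and 28.8 on day 2, against 762 and 888 on day 0; -5.02 ± 1.04). Besides the auxin-conjugating enzyme WES1 (GH3.5), the other 6 were AT2G39210, AT5G11930, AT1G23140, AT4G21620, AT4G15390 and AT1G70080, all given by locus because the annotation used here has no symbol for them.

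The largest rise was that of GSTU22, a tau-class glutathione transferase, which read 1356 and 1223 on day 2, against 25.5 and 30.2 on day 0 (5.54 ± 0.10, adjusted p = 1.33e-11). GSTU25 of the same class read 1967 and 1906 on day 2, against 189 and 176 on day 0 (3.41 ± 0.15). AER, an alkenal reductase that removes reactive carbonyls made by lipid oxidation, read 877 and 736 on day 2, against 90.1 and 69.5 on day 0 (3.34 ± 0.13, adjusted p = 1.50e-09). The other 7 of the 10 carried no symbol: AT4G36430, AT5G18130, AT1G54050, AT3G13980, AT4G24780, AT5G07870 and AT5G14730. Of these 7, AT4G36430 had the largest change (352 and 505 on day 2, against 23.7 and 33.8 on day 0; 3.90 ± 0.20) and AT5G14730 the smallest (1762 and 1478 on day 2, against 195 and 137 on day 0; 3.30 ± 0.18). AT1G54050 had the least even pair of arrays on day 0 (424 and 634 on day 2, against 56.9 and 24.9 on day 0), which did not overlap with day 2 either.

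Other genes with a symbol showed smaller changes than the extremes above. SAG29, the sucrose exporter SWEET15 that is known from senescing leaves, read 459.9 and 364 on day 2, against 70.1 and 36.1 on day 0 (3.03 ± 0.26). FMO, a flavin monooxygenase, read 229 and 186 on day 2, against 23.5 and 22.5 on day 0 (3.16 ± 0.10). TRM19 of the TON1-recruiting-motif family read 338 and 340.2 on day 2, against 55.5 and 53.9 on day 0 (2.63 ± 0.11), and QKY (QUIRKY), a membrane protein needed for tissue patterning, read 118 and 122 on day 2, against 28.9 and 27.4 on day 0 (2.09 ± 0.13). In the other direction, OSM34, an osmotin of the thaumatin family, read 152 and 77.0 on day 2, against 2240.0 and 2056 on day 0 (-4.31 ± 0.22). VTC4, a phosphatase of ascorbate and inositol synthesis, read 149.8 and 163 on day 2, against 1358 and 1402 on day 0 (-3.14 ± 0.08). The peroxidase PRXR1 read 119.9 and 124 on day 2, against 1027 and 958 on day 0 (-3.02 ± 0.09). The days did not overlap in any of these 7 genes, and no array of them was dim.

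Some genes were readable on 1 of the days only. Both day 0 arrays were dim for 648 tested probe sets, of which 595 were called higher, and both day 2 arrays for 614, of which 495 were called lower; a probe set that passed the filter through 1 day only had to differ, so these counts are a description. The largest bound was that of AT5G17340, at least 119.7-fold lower (9.0 and 6.66 on day 2, against 2295 and 2143 on day 0). AT3G03150 was at least 69.1-fold lower (16.2 and 14.8 on day 2, against 1434 and 1143 on day 0), AT2G04460 at least 67.3-fold (11.4 and 12.0 on day 2, against 1171 and 1327 on day 0), AT1G08310 at least 50.2-fold (2.41 and 7.04 on day 2, against 915 and 946 on day 0) and AT5G20790 at least 34.1-fold (5.62 and 4.31 on day 2, against 589 and 678 on day 0). These 5 carry no symbol here. AT3G13610, the sixth fall by its bound and listed with the synonym of F6'H1, the hydroxylase that commits phenylpropanoid precursors to the coumarin scopoletin, was at least 33.4-fold lower (10.8 and 4.37 on day 2, against 651 and 587 on day 0). FHL, a nuclear import partner of the phytochrome A light receptor, was at least 28.0-fold lower (17.5 and 11.8 on day 2, against 497 and 543 on day 0), and SAL2, a phosphatase of the SAL1 family, at least 24.0-fold (6.9 and 4.66 on day 2, against 412 and 480.1 on day 0). Of the genes readable only on day 2, AT4G04460 was at least 29.9-fold higher (552 and 538 on day 2, against 13.6 and 10.8 on day 0) and AT4G30170 at least 18.5-fold (319 and 358 on day 2, against 8.51 and 0.335 on day 0). AT1G75280, AT1G28400 and AT3G21770 followed, at least 18.1-fold, 17.4-fold and 16.6-fold higher. MGL, methionine gamma-lyase, which splits methionine, came next and led the genes with a symbol, at least 16.4-fold higher (292 and 306 on day 2, against 7.76 and 7.38 on day 0). The tetraspanin TET2 was at least 11.9-fold higher (186 and 253 on day 2, against 12.7 and 5.1 on day 0) and OCT5, an organic cation transporter, at least 9.29-fold (199 and 144 on day 2, against 4.89 and 9.46 on day 0).

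The groups of genes described next were assembled by function, mostly from the symbols the annotation holds. The plot shows 25 of the 44 groups. Among these 25, the ubiquitin-specific proteases and the vascular regulators had called members on the higher side and none on the lower, as did the gibberellin genes as listed. Branched-chain and lysine breakdown, the ESCRT proteins and the aldehyde dehydrogenases had called members on the lower side and none on the higher.

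**Figure D2:**
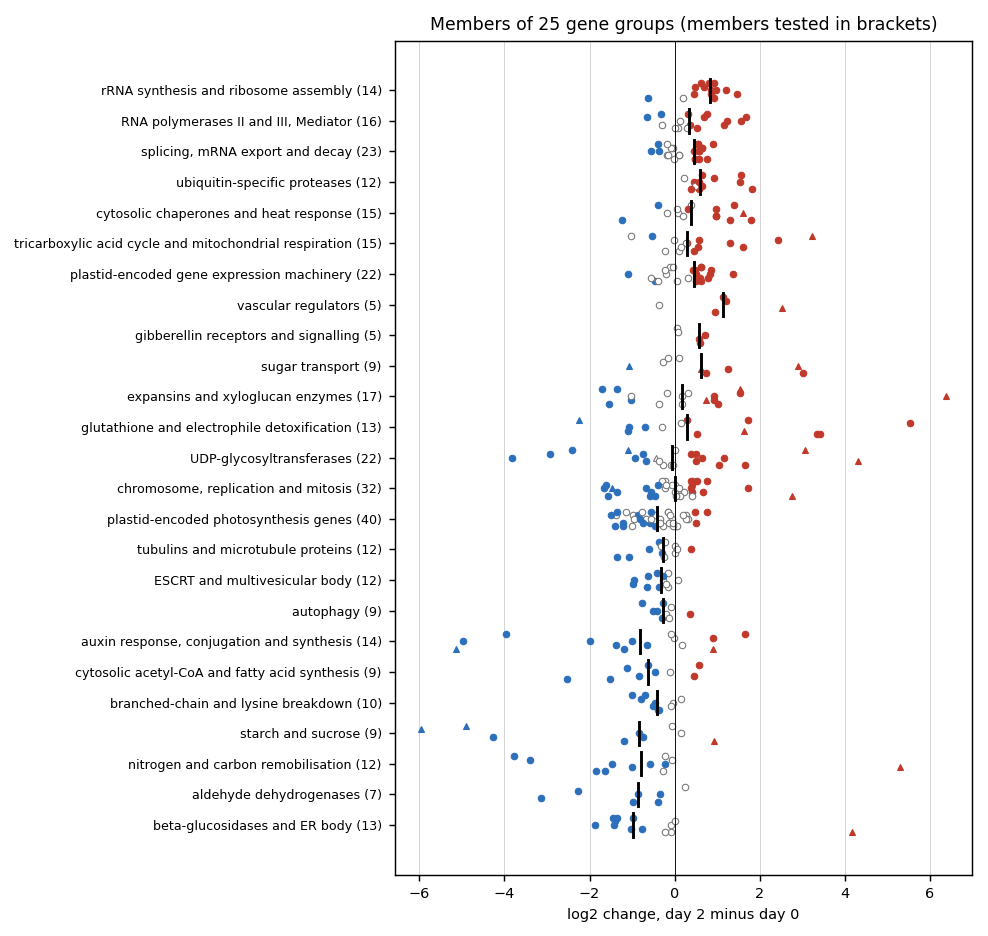
Each row is a gene group, each point a member that was tested, and the x axis the log2 change, day 2 minus day 0; red and blue points were called higher and lower, open points were not called, triangles had both arrays of 1 day dim, so that their position is not a measured fold, and black bars are group medians. Among the 25 groups drawn, the median ran from 1.15 for the vascular regulators to -0.98 for beta-glucosidases and ER body genes, and the phenylpropanoid group, at -1.46, is not drawn.

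Making ribosomes begins in the nucleolus, where RNA polymerase I transcribes the ribosomal RNA precursor and a series of assembly factors cut, fold and package it. Of 14 genes listed here under ribosomal RNA synthesis and ribosome assembly, 12 were called higher on day 2 and 1 lower. Their median log2 change was 0.82. The list also takes in genes that need not act in the nucleolus, DIM1B among them. PES, the PESCADILLO factor of the large subunit (AT5G14520), read 1010.0 and 1103 on day 2, against 518 and 558 on day 0 (0.97 ± 0.08, adjusted p = 4.22e-07). IMP4, of the complex that processes the small subunit precursor, read 651 and 692 on day 2, against 374 and 374 on day 0 (0.84 ± 0.08), and NOB1 (AT5G41190), known in yeast as the nuclease of the last cut of the small subunit RNA, read 198 and 218 on day 2, against 112 and 128 on day 0 (0.80 ± 0.10). The ribosomal protein gene PGY1 read 1086 and 1030.0 on day 2, against 533 and 796 on day 0 (0.70 ± 0.14). For each of these genes both day 2 arrays lay above both day 0 arrays. DIM1B, a ribosomal RNA dimethylase, was the member that went the other way, with 31.9 and 36.4 on day 2, against 54.7 and 50.1 on day 0 (-0.62 ± 0.15). DIM1A, which modifies ribosomal RNA in the nucleolus, read 205 and 185 on day 2, against 132 and 148 on day 0 (0.48 ± 0.12).

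The other nuclear RNA polymerases moved in the same direction in part. Of 16 genes listed under RNA polymerases II and III, related polymerases and the Mediator coactivator, 9 were higher and 2 lower, with a median of 0.34. MED6, 1 of the lower ones (-0.65 ± 0.18), lost its call without array 2 of day 0 (-0.44) or array 1 of day 2 (-0.45). NRPB7, which with its partner forms the stalk of polymerase II, read 387 and 359.7 on day 2, against 103 and 132 on day 0 (1.68 ± 0.11, adjusted p = 9.83e-08). The small subunits NRPB9B and NRPB12 read 123 and 146 on day 2, against 51.9 and 39.9 on day 0 (1.56 ± 0.14) and 517 and 594 on day 2, against 232 and 237 on day 0 (1.24 ± 0.10). NRPC2, the second-largest subunit of polymerase III, read 156 and 183 on day 2, against 72.2 and 80.1 on day 0 (1.15 ± 0.13). NRPB9A, the other gene for that small subunit, read 25.1 and 33.1 on day 2, against 30.9 and 27.1 on day 0 and was not called (-0.00 ± 0.22). NRPB6A was lower (310.4 and 315 on day 2, against 381 and 396 on day 0; -0.31 ± 0.08).

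Of 23 genes of splicing, mRNA export and decay, 12 were higher and 3 lower (1 without array 2 of day 0 or array 1 of day 2), with a median of 0.45. Y14, a core protein of the complex left on spliced exon junctions, read 684 and 719 on day 2, against 383 and 371 on day 0 (0.90 ± 0.10, adjusted p = 9.43e-06). STIPL1, a spliceosome factor, read 58.1 and 69.3 on day 2, against 37.6 and 37.0 on day 0 (0.77 ± 0.14), and SE (SERRATE), which acts in splicing and microRNA processing, read 89.4 and 84.3 on day 2, against 59.3 and 52.7 on day 0 (0.64 ± 0.12). The related spliceosome proteins MAC3A and MAC3B went apart: MAC3A read 303 and 319.6 on day 2, against 223 and 224 on day 0 (0.48 ± 0.10). MAC3B read 487 and 453 on day 2, against 694 and 682 on day 0 (-0.55 ± 0.11). No array of day 2 overlapped with day 0 in either gene. In nucleotide supply, PYRB, the first committed enzyme of pyrimidine synthesis in plants, read 307 and 329 on day 2, against 147 and 178 on day 0 (0.98 ± 0.10). UPP, which salvages uracil, read 86.9 and 103 on day 2, against 55.9 and 51.3 on day 0 (0.82 ± 0.13). Of the 7 genes in that group 3 were higher and 2 lower, where the count of lower ones was 1 when any of the day 0 arrays or array 2 of day 2 was left out.

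Ubiquitin-specific proteases remove ubiquitin from proteins. Of 12 tested, 10 were higher on day 2 and 0 lower (median 0.60). The largest changes were in UBP21 (122 and 107 on day 2, against 35.6 and 30.0 on day 0; 1.81 ± 0.14, adjusted p = 3.28e-07), UBP23 (176 and 166 on day 2, against 52.0 and 64.6 on day 0; 1.56 ± 0.13) and UBP22 (129.9 and 117 on day 2, against 43.3 and 41.9 on day 0; 1.54 ± 0.10), and UBP20 followed (103 and 93.2 on day 2, against 51.6 and 52.0 on day 0; 0.92 ± 0.11). In these 4 genes every day 2 array was above every day 0 array. The ubiquitin-conjugating enzymes, which act in attaching ubiquitin, behaved otherwise: of 10 tested, 2 were higher and 5 lower. UBC18 read 118 and 109 on day 2, against 288 and 230.4 on day 0 (-1.18 ± 0.14). UBC28 read 1497 and 1231 on day 2, against 2483 and 2329 on day 0 (-0.83 ± 0.12). UBC16 read 195 and 168 on day 2, against 123 and 111 on day 0 (0.63 ± 0.11). The U-box ubiquitin ligases had no common direction, with 2 of 8 higher and 2 lower. PUB23, a brake on immune signalling, read 85.3 and 99.4 on day 2, against 353 and 398 on day 0 (-2.03 ± 0.17, adjusted p = 8.05e-07). PUB43 was higher, with 78.8 and 73.25 on day 2, against 34.0 and 44.8 on day 0 (0.96 ± 0.16).

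Chaperones help proteins to fold and are commonly induced by heat. The label of day 2 gives 27 C where that of day 0 gives 22 C, but the medium and its additions differ as well. A part of temperature in the changes below was not tested. Of 15 cytosolic chaperone and heat response genes 8 were higher and 2 lower (median 0.38). HSA32, which is needed for lasting acquired heat tolerance, read 113 and 141 on day 2, against 53.2 and 43.5 on day 0 (1.40 ± 0.19, adjusted p = 5.59e-05). Hop3, a linker between HSP70 and HSP90, read 221 and 290.4 on day 2, against 113 and 95.2 on day 0 (1.29 ± 0.17). The HSP70-binding protein Fes1A read 297 and 320.1 on day 2, against 167 and 147 on day 0 (0.98 ± 0.12). BOB1, a small chaperone needed for development and heat tolerance, read 628 and 647 on day 2, against 330.5 and 320.1 on day 0 (0.97 ± 0.07). Fes1B, a relative of Fes1A, was lower, with 26.3 and 13.5 on day 2, against 45.8 and 43.4 on day 0 and 1 dim day 2 array (-1.24 ± 0.29). The genes that fold and clear proteins in the endoplasmic reticulum showed no common direction, with 4 of 15 higher and 5 lower: the DnaJ protein ATERDJ2A read 283 and 303 on day 2, against 145 and 183 on day 0 (0.85 ± 0.12). BZIP60, a transcription factor of the unfolded protein response, read 159.9 and 161 on day 2, against 269 and 333 on day 0 (-0.90 ± 0.15).

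In mitochondria, the tricarboxylic acid cycle yields NADH, and the respiratory chain passes its electrons on to oxygen through cytochrome c. Of 15 genes of these steps 8 were higher and 1 lower (median 0.30; 2 lower with every array raised to its 40th percentile). The largest measured rises were in NDB4 and NDB2, alternative NAD(P)H dehydrogenases on the outer face of the inner membrane that bypass complex I. NDB4 read 172 and 205 on day 2, against 29.5 and 40.8 on day 0 (2.44 ± 0.23, adjusted p = 2.42e-06). NDB2 read 686 and 645 on day 2, against 188 and 252 on day 0 (1.61 ± 0.13, adjusted p = 6.12e-07). CYTC-2, a cytochrome c, read 183 and 212 on day 2, against 79.0 and 81.1 on day 0 (1.30 ± 0.15), with both day 2 arrays above both day 0 arrays as in both NDB genes. IDH-III, a subunit of isocitrate dehydrogenase, was dim on day 0 and at least 1.7-fold higher (26.1 and 36.9 on day 2, against 5.47 and 2.0 on day 0), and NDB1, a further external dehydrogenase, was lower (45.3 and 44.0 on day 2, against 62.4 and 66.3 on day 0; -0.53 ± 0.14).

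**Figure D3:**
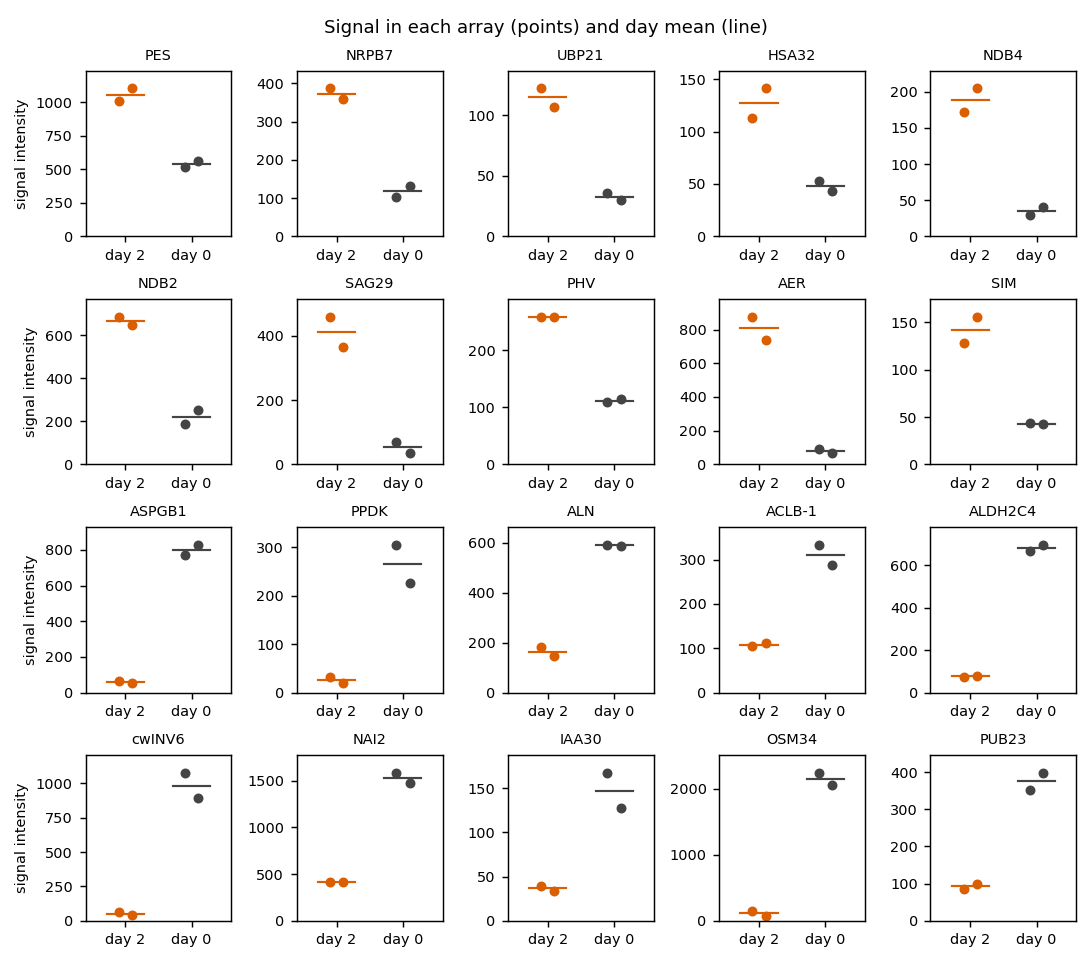
Signal intensity (linear y axis from 0) of 20 genes, with the 2 arrays of day 2 left and the 2 of day 0 right as points and the day mean as a line. The upper 10 genes were higher and the lower 10 lower on day 2, and in all 20 the arrays of the 2 days did not overlap.

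Cells short of sugar or nitrogen break down proteins, purines, lipids and amino acids to feed respiration. Of 12 genes of such remobilisation 8 were lower on day 2 and 1, MGL, was higher (median -0.78). The asparaginase ASPGB1 read 64.0 and 53.9 on day 2, against 773 and 829.6 on day 0 (-3.77 ± 0.12, adjusted p = 5.07e-10). PPDK, pyruvate orthophosphate dikinase, read 32.4 and 19.5 on day 2, against 306 and 228 on day 0 (-3.39 ± 0.24, adjusted p = 1.97e-07). ALN, the allantoinase of purine breakdown, read 184 and 145 on day 2, against 593 and 589 on day 0 (-1.86 ± 0.10). The formate dehydrogenase FDH read 94.7 and 46.2 on day 2, against 250.5 and 169 on day 0 (-1.64 ± 0.26). ICL, isocitrate lyase of the glyoxylate cycle, read 543 and 575 on day 2, against 1582 and 1531 on day 0 (-1.48 ± 0.15). All 4 arrays were readable for these 5 genes, and the days did not overlap. Planned lists on related themes went both ways. In the list of sugar starvation 4 of 6 genes were lower and 1 higher (median -0.43). In the list of senescence and dark-induced genes 5 of 7 were higher and 1 lower (median 0.45). Of 10 genes listed under the breakdown of branched-chain amino acids and lysine 7 were lower and 0 higher (median -0.42). Among the lower ones was D2HGDH, which oxidises hydroxyglutarate (38.5 and 36.9 on day 2, against 78.8 and 71.3 on day 0, -0.99 ± 0.13). So were the electron transfer flavoprotein subunits ETFBETA (-0.79 ± 0.17) and ETFALPHA (-0.51 ± 0.08), which carry electrons to the respiratory chain. Of 9 autophagy genes, all of the ATG8 family but ATG3, 5 were lower and 1 higher. Fewer were lower without array 2 of day 2. ATG8F, one of the proteins that coat the autophagosome, read 993 and 999.7 on day 2, against 1721 and 1679 on day 0 (-0.77 ± 0.07). ATG8G read 226 and 218 on day 2, against 172 and 175 on day 0 (0.35 ± 0.09).

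ATP-citrate lyase makes the acetyl-CoA of the cytosol, from which waxes, sterols and many specialised products are built. All 4 of its tested genes were lower. ACLB-1 read 105 and 112 on day 2, against 334 and 287 on day 0 (-1.51 ± 0.09, adjusted p = 6.18e-08). ACLA-3 read 159.7 and 192 on day 2, against 359 and 399 on day 0 (-1.11 ± 0.10). ACLA-2 read 130.5 and 127 on day 2, against 244 and 216 on day 0 (-0.84 ± 0.11). ACLA-1 read 427 and 469 on day 2, against 695 and 685 on day 0 (-0.62 ± 0.09). Both day 2 arrays lay below both day 0 arrays in each. The acyl-activating enzyme AAE15 read 35.3 and 46.1 on day 2, against 212 and 254 on day 0 (-2.53 ± 0.19). FATB, the thioesterase that releases saturated fatty acids from the plastid pathway, read 172 and 183 on day 2, against 126 and 114 on day 0 (0.57 ± 0.10). The whole group held 6 lower and 2 higher of 9; the higher ones were 1 without array 2 of day 0 or of day 2, and with centred or quantile-normalized arrays.

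Among 9 genes of starch and sucrose 6 were lower and 1 higher (median -0.83; none higher without array 2 of day 0 or array 1 of day 2). cwINV6, named in the cell wall invertase family but listed as a fructan exohydrolase, read 65.3 and 39.1 on day 2, against 1077 and 891 on day 0 (-4.28 ± 0.24, adjusted p = 3.27e-08). The sucrose-phosphate synthase ATSPS4F was at least 3.07-fold lower (1.11 and 0.746 on day 2, against 54.6 and 59.1 on day 0), and AT4G24450, one of 2 loci listed as PWD, a dikinase that tags starch for breakdown, at least 12.6-fold lower (6.59 and 9.23 on day 2, against 207 and 264 on day 0). DPE1, which rearranges starch-derived sugars in the plastid, read 30.7 and 25.4 on day 2, against 55.5 and 72.1 on day 0 (-1.18 ± 0.19). Among 9 genes listed under sugar transport 5 were higher and 1 lower. The count of lower ones changed when single arrays were left out. The planned list of sugar transporters, also with 9 tested genes, held 4 higher and 1 lower. Its median was 0.11, near the 0.09 of all genes with a name. Beside SAG29, TMT2, which loads hexoses into the vacuole, read 162 and 155 on day 2, against 64.9 and 67.1 on day 0 (1.26 ± 0.09). SWEET17, a vacuolar fructose carrier, read 87.4 and 90.0 on day 2, against 55.2 and 51.8 on day 0 (0.73 ± 0.09), and SFP1, a sugar porter induced in senescence, was at least 4.75-fold higher (100.4 and 74.5 on day 2, against 17.5 and 7.59 on day 0).

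Aldehyde dehydrogenases oxidise reactive aldehydes. Of 7 tested, 6 were lower and 0 higher (median -0.85). ALDH2C4, which makes ferulic and sinapic acids, read 74.8 and 79.5 on day 2, against 666 and 697 on day 0 (-3.14 ± 0.31, adjusted p = 3.46e-06). ALDH3F1 read 63.1 and 59.4 on day 2, against 270.1 and 321 on day 0 (-2.27 ± 0.22). ALDH7B4, known as a stress gene, read 849.9 and 834 on day 2, against 1546 and 1497 on day 0 (-0.85 ± 0.09). ALDH22A1 was not called (127 and 145 on day 2, against 112 and 116 on day 0; 0.25 ± 0.17).

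The hormone genes did not move as a block. Of 5 brassinosteroid genes tested, 2 were higher and 1 lower (2 lower without array 2 of day 0). BAT1 (AT4G31910), an acyltransferase that inactivates brassinosteroids, read 94.0 and 131 on day 2, against 33.8 and 35.6 on day 0 (1.68 ± 0.15, adjusted p = 1.44e-06). BIM1, a partner of the transcription factor BES1 in the response, read 151 and 137 on day 2, against 60.5 and 66.7 on day 0 (1.18 ± 0.19). EXO (EXORDIUM), a growth gene known to be induced by brassinosteroid in seedlings, was lower (352 and 309.6 on day 2, against 1278 and 1046 on day 0; -1.81 ± 0.20, adjusted p = 7.28e-06). The vascular receptor BRL1 was not called (128 and 118 on day 2, against 97.3 and 103 on day 0; 0.30 ± 0.14). Of 5 gibberellin genes 3 were higher and 0 lower: the receptors GID1B (364 and 336 on day 2, against 208 and 216 on day 0; 0.72 ± 0.09) and GID1A (205 and 206 on day 2, against 133 and 136 on day 0; 0.61 ± 0.13), and SLY1, which hands DELLA repressors to degradation (122 and 128 on day 2, against 80.1 and 86.4 on day 0; 0.58 ± 0.12). SLY2, a relative of SLY1 that is not in this list, was at least 3.01-fold lower (18.0 and 11.4 on day 2, against 58.7 and 52.9 on day 0; adjusted p = 1.24e-04).

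Of 14 genes of auxin response, conjugation and synthesis 8 were lower and 3 higher (median -0.82). IAA30, a repressor of the Aux/IAA family, read 39.6 and 34.2 on day 2, against 167 and 127 on day 0 (-1.99 ± 0.17, adjusted p = 1.10e-06), and GH3.17, an enzyme that conjugates auxin to glutamate, read 692 and 612 on day 2, against 1274 and 1343 on day 0 (-1.01 ± 0.09). Of the members that rose, IAGLU, which makes the glucose ester of auxin, read 108 and 109 on day 2, against 35.7 and 33.4 on day 0 (1.65 ± 0.23). IAA18 read 383 and 372 on day 2, against 189 and 214 on day 0 (0.91 ± 0.09). Among 5 regulators of vascular tissue 4 were higher and 0 lower (median 1.15; 1 lower with centred arrays or with only the 4 arrays of these days). PHV, an HD-ZIP III factor of xylem and leaf polarity, read 258 and 259 on day 2, against 109 and 114 on day 0 (1.21 ± 0.09, adjusted p = 3.96e-07). LHW, a bHLH factor that sets the number of vascular cell files, read 131 and 122 on day 2, against 63.1 and 51.9 on day 0 (1.15 ± 0.14). OPS (OCTOPUS), a membrane protein of phloem formation, was at least 4.44-fold higher (79.9 and 81.8 on day 2, against 12.9 and 15.2 on day 0). CLE41, whose peptide keeps procambium from turning into xylem, read 40.8 and 51.3 on day 2, against 31.8 and 17.5 on day 0 (0.96 ± 0.32), but was not called without array 2 of day 0 (0.53, adjusted p = 0.193) or of day 2 (0.79, adjusted p = 0.115).

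Wall genes were called in both directions. Expansins loosen the wall, and xyloglucan enzymes build and cut its main hemicellulose. Of 17 such genes 7 (41.2%) were higher and 4 (23.5%) lower, which is near the background. EXGT-A3, a xyloglucan endotransglucosylase, read 467 and 495 on day 2, against 156 and 178 on day 0 (1.53 ± 0.09, adjusted p = 6.60e-08). The xyloglucan backbone synthases CSLC04 and CSLC6 were higher (571 and 525 on day 2, against 312 and 265 on day 0, and 137 and 139 on day 2, against 71.7 and 72.6 on day 0), while CSLC5 of the same family was lower (86.6 and 87.5 on day 2, against 234 and 213 on day 0; -1.36 ± 0.10). Of the 9 genes in the planned expansin list 4 were higher and 3 lower. EXPA9 and EXLA1 were lower (158 and 252 on day 2, against 633 and 660.1 on day 0, and 199 and 183 on day 2, against 546 and 562 on day 0). EXPA4 was higher (245.4 and 256.2 on day 2, against 86.9 and 176.3 on day 0; 1.02 ± 0.24), and EXPA8, dim on day 0, was at least 4.17-fold higher (68.1 and 84.7 on day 2, against 1.5 and 0.554 on day 0). Of 6 phenylpropanoid genes 4 were lower and 1 higher (median -1.46). CCOAMT, a caffeoyl-CoA methyltransferase, read 27.5 and 17.6 on day 2, against 80.3 and 66.2 on day 0 (-1.73 ± 0.25), and CCR2 (AT1G80820), a cinnamoyl-CoA reductase linked to defence rather than to wall lignin, was at least 4.73-fold lower (19.1 and 11.2 on day 2, against 78.4 and 97.9 on day 0). UGT72E1, which glucosylates coniferyl aldehyde, read 26.7 and 11.5 on day 2, against 221 and 275 on day 0, with 1 dim day 2 array (-3.82 ± 0.40). HCT, an entry enzyme of lignin synthesis, was the higher member (199 and 163 on day 2, against 104 and 111 on day 0; 0.75 ± 0.13). Of 12 tubulin and microtubule genes 5 were lower and 1 higher, and fewer were lower without array 1 of day 2. In the planned list of tubulins and actins 2 of 9 genes were lower and 1 higher. TUB7 read 204 and 172 on day 2, against 399 and 395 on day 0 (-1.08 ± 0.11). KINESIN-13A, which shapes the pits of vessel walls, read 354 and 382 on day 2, against 267 and 296 on day 0 (0.39 ± 0.09).

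The ER body is a compartment of the mustard family that stores beta-glucosidases against herbivores and microbes. Of 13 beta-glucosidase and ER body genes 8 were lower and 1 higher (median -0.98). NAI2, which builds the compartment, read 419 and 416 on day 2, against 1585 and 1480.0 on day 0 (-1.88 ± 0.18, adjusted p = 3.29e-06). PYK10, its main glucosidase, read 1389 and 1223 on day 2, against 2692 and 2443 on day 0 (-0.98 ± 0.20). The lectins JAL34 and JAL22, which bind PYK10 when cells break, read 905 and 985 on day 2, against 2666 and 2322 on day 0 (-1.40 ± 0.11) and 453 and 396 on day 2, against 1074 and 1094 on day 0 (-1.36 ± 0.24). BGLU44, a glucosidase of another subfamily, was the member that was higher, at least 9.71-fold (176 and 178 on day 2, against 12.3 and 7.95 on day 0). NAI1, the transcription factor of the compartment, was not called (126 and 97.9 on day 2, against 144 and 116 on day 0; -0.22 ± 0.25).

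UDP-glycosyltransferases attach sugars to hormones and foreign compounds. Of 22 tested, 9 (40.9%) were higher and 7 (31.8%) lower, which is near the background. UGT76B1, which glucosylates defence signals, read 109.5 and 111 on day 2, against 1008 and 702 on day 0 (-2.93 ± 0.26, adjusted p = 1.52e-06). UGT73D1 and UGT73B1 were dim on day 0 and at least 6.24-fold and 2.5-fold higher on day 2 (118 and 109 on day 2, against 14.5 and 12.8 on day 0, and 49.9 and 41.6 on day 2, against 1.35 and 3.87 on day 0). Of 17 thioredoxins, glutaredoxins and partners 4 were higher (2 without array 1 of day 0 or array 2 of day 2) and 6 lower. GRX480, a glutaredoxin that binds TGA transcription factors, read 278 and 276 on day 2, against 74.3 and 64.0 on day 0 (2.01 ± 0.25). GRXC1 read 92.1 and 79.1 on day 2, against 374 and 366 on day 0 (-2.12 ± 0.12). MSRB9, a repair enzyme of oxidised methionine, read 194 and 217 on day 2, against 1201 and 1061 on day 0 (-2.46 ± 0.12). The stromal ascorbate peroxidase SAPX was higher (287 and 301 on day 2, against 117 and 122 on day 0; 1.30 ± 0.08).

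Of 12 genes of dehydration, cold and abscisic acid 4 were higher and 6 lower. The zinc finger protein DI19 read 676 and 599.8 on day 2, against 1627 and 1663 on day 0 (-1.37 ± 0.09) and the small dehydrin HIRD11 (AT1G54410) read 180.2 and 186 on day 2, against 545 and 648 on day 0 (-1.70 ± 0.10). The dehydrin COR47 read 65.0 and 67.6 on day 2, against 26.9 and 32.7 on day 0 (1.16 ± 0.12). Among 10 defence proteins 3 were higher and 5 lower: the putative chitinase CHI read 70.2 and 60.7 on day 2, against 297 and 307 on day 0 (-2.21 ± 0.18). SAG101, a lipase-like regulator of immune receptors, read 24.1 and 19.1 on day 2, against 95.5 and 103 on day 0 (-2.21 ± 0.22). LCR69, a defensin-like protein, read 608 and 610.5 on day 2, against 13.4 and 21.6 on day 0, with 1 dim day 0 array (5.16 ± 0.19). Of 6 bHLH regulators of iron deficiency 4 were lower (2 without array 2 of day 0 or of day 2) and 1 higher. PYE (POPEYE), a repressor induced by iron deficiency, read 100.3 and 116 on day 2, against 51.6 and 48.3 on day 0 (1.11 ± 0.12). bHLH121, an upstream activator, read 89.7 and 89.6 on day 2, against 137 and 139 on day 0 (-0.63 ± 0.11).

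The ESCRT proteins sort membrane proteins into multivesicular bodies for breakdown in the vacuole. Of 12 tested, 7 were lower and 0 higher (median -0.33). SNF7.2, of the filament that pinches off the vesicle, read 87.4 and 90.7 on day 2, against 174 and 175 on day 0 (-0.97 ± 0.10, adjusted p = 5.71e-06), VPS60.2 read 96.5 and 104 on day 2, against 192 and 197 on day 0 (-0.96 ± 0.10) and VPS46.2 read 401 and 366 on day 2, against 596 and 582 on day 0 (-0.62 ± 0.09). Both day 2 arrays lay below both day 0 arrays in these 3 genes.

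The chromosome and cell division genes were spread about evenly around zero, with 9 of 32 higher and 10 lower (median 0.01). Lower were TOPII, the topoisomerase that untangles chromosomes (35.2 and 47.0 on day 2, against 122 and 128 on day 0; -1.62 ± 0.21), 3xHMG-box2, a protein of mitotic chromosomes (54.0 and 42.8 on day 2, against 153 and 152 on day 0; -1.67 ± 0.20), and ATMAP65-6, a microtubule bundler (26.1 and 38.4 on day 2, against 81.8 and 80.8 on day 0; -1.36 ± 0.21). SIM (SIAMESE), an inhibitor of cyclin-dependent kinases that moves cells from division to endoreplication, was higher (128 and 156 on day 2, against 43.4 and 42.3 on day 0, 1.72 ± 0.11, adjusted p = 8.33e-08). Also higher in this group were BUB3.1 (0.419 ± 0.11), BUB3.2 (0.408 ± 0.105) and CDC27a. CDC27a was dim on day 0 and at least 1.3-fold higher, and it lost its call with every array raised to its 40th percentile. The core mitotic genes AUR2 and AUR3, the Aurora kinases, were not called (-0.23 ± 0.21 and -0.22 ± 0.13), while AUR1 was lower (105 and 79.4 on day 2, against 143 and 129 on day 0; -0.57 ± 0.17) but lost its call without array 1 of day 0 (-0.50, adjusted p = 0.0658) or array 2 of day 2 (-0.37, adjusted p = 0.123).

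Of 22 genes of the plastid's own transcription, translation and protein turnover 12 were higher and 2 lower (median 0.46; 1 lower without array 2 of day 0, array 1 of day 2 or the variance trend). Of 40 photosynthesis genes of the plastid genome 3 were higher and 11 lower (median -0.41). The share of lower ones was 27.5%, near the background. These counts became 5 higher and 18 lower with the replicate number as a block, and 1 and 7 without array 2 of day 2. In both groups many genes are neighbours on the plastid genome, in the first for example rps3, rpl22 and rps19, or rpoB, rpoC1 and rpoC2. Neighbours can share a transcript, so the members counted are not independent. The difference between both groups was not tested. Among the first, the ribosomal protein genes rps16 and rpl22 read 89.8 and 64.4 on day 2, against 34.2 and 25.5 on day 0 (1.37 ± 0.22) and 1155 and 928 on day 2, against 603 and 561 on day 0 (0.83 ± 0.13). The polymerase genes rpoA and rpoC2 read 372 and 275 on day 2, against 214 and 206 on day 0 (0.61 ± 0.13) and 90.0 and 96.3 on day 2, against 61.7 and 62.1 on day 0 (0.59 ± 0.12). Among the second, psbE, psbF and psbL, which are neighbours on 1 transcript with psbJ and so not independent, read 266 and 244 on day 2, against 741 and 689.6 on day 0 (-1.49 ± 0.16), 495 and 357 on day 2, against 1168 and 1069 on day 0 (-1.41 ± 0.27) and 129 and 89.8 on day 2, against 277 and 228 on day 0 (-1.22 ± 0.21). rbcL, psbA and psaA were not called (0.21 ± 0.23, -0.04 ± 0.20 and 0.05 ± 0.23). How the RNA was primed for labelling, which bears on plastid RNA, is not stated by the labels.

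Pairs of genes with nearly the same symbol did not always move together. There were 77 pairs of tested genes whose symbols differ only in the last number or letter, with no further such gene. Such symbols need not mean close relatives. Among all genes with a symbol 34.2% were called higher and 30% lower, so unrelated genes would form opposite pairs too. Whether the counts of pairs differ from those of unrelated genes was not tested. Of the 77 pairs, 24 were called in the same direction, 10 in opposite directions, and in 43 at most 1 was called. Among the 10, beside MAC3A with MAC3B and DIM1A with DIM1B, were 2 pairs chosen here after their values were seen. The jasmonate factors MYC3 and MYC4 read 139.6 and 138 on day 2, against 70.7 and 67.8 on day 0 (1.00 ± 0.09), and 39.4 and 41.6 on day 2, against 76.3 and 84.3 on day 0 (-0.99 ± 0.15). The actin-bundling proteins WLIM2a and WLIM2b read 64.0 and 80.5 on day 2, against 19.5 and 11.6 on day 0 (2.25 ± 0.22, 1 day 0 array dim), and 895 and 820.0 on day 2, against 1415 and 1344 on day 0 (-0.69 ± 0.08). In each of these genes the arrays of the days did not overlap.

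Day 2 was also set against the mean of days 4, 6, 8 and 10 in the same fit; the 2 comparisons share the day 2 arrays, so their counts are given side by side and not combined. In this contrast 4345 probe sets (30.6%) were higher on day 2 and 3729 (26.3%) lower, or 56.8% in all. Among genes with a name 29.7% were higher and 25.6% lower, or 55.3% in all, and among those with a symbol 27.8% and 28.1%, or 55.9%. After centring the arrays on their medians the split became 5486 higher and 2681 lower, so the balance of directions in this contrast rests on the scaling. Days 6 and 10 share the 27 C label of day 2, and days 4 and 8 are labelled 22 C.

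Against the later days, 10 of 14 ribosome assembly genes and 11 of 15 genes of the tricarboxylic acid cycle and respiration were higher on day 2, with 0 and 0 lower. PES had day means of 538, 1057, 652, 529.5, 632 and 684 on days 0, 2, 4, 6, 8 and 10, and was 0.76 ± 0.06 (log2) above the later days (adjusted p = 7.01e-07). NDB2 had 219.7, 665, 270.3, 193, 211 and 237 on the same days (1.56 ± 0.10, adjusted p = 2.02e-07), and CYTC-2 was 1.24 ± 0.12 above the later days. In these 3 genes the highest mean of the course was that of day 2. HSA32 was also higher than later (0.73 ± 0.15, adjusted p = 0.00159), with means of 48.4, 127, 79.4, 65.7, 67.2 and 100.5; Hop3 was not called in this contrast (0.22 ± 0.14, adjusted p = 0.189). Of the 12 ubiquitin-specific proteases 3 were higher and 2 lower than on the later days.

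**Figure D4:**
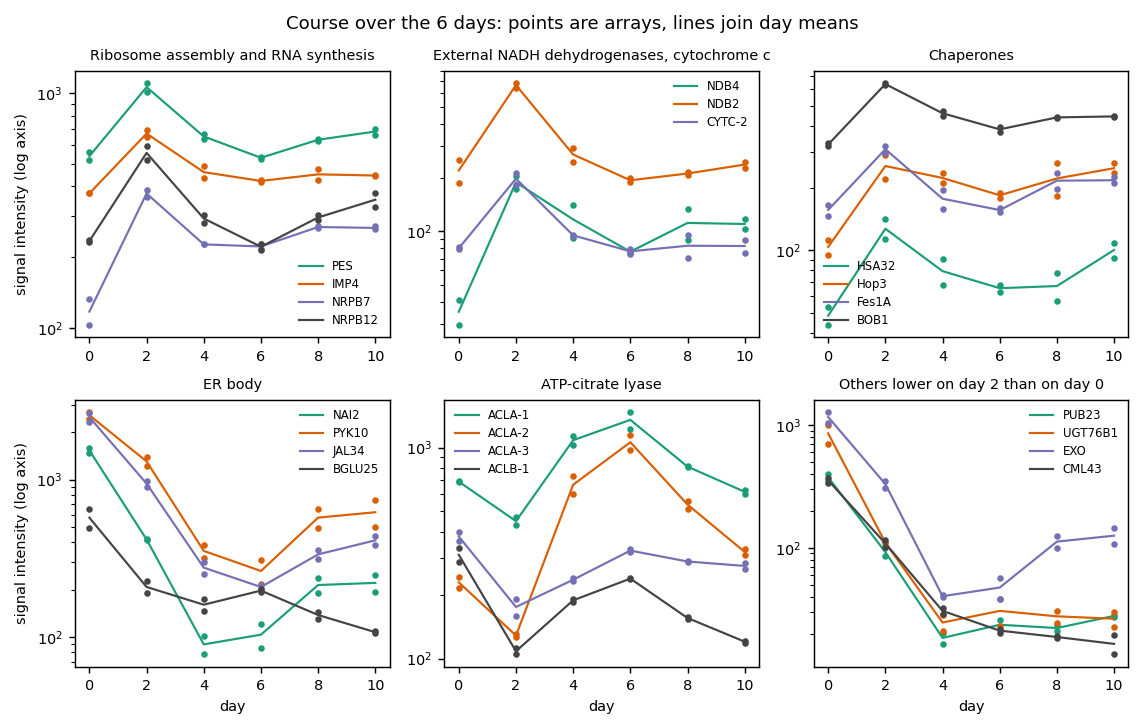
Signal intensity on a log axis against day for genes of 6 groups; points are the 2 arrays of a day and lines join day means, and levels of different genes are not to be compared. PES, NDB2 and the 4 chaperones had their highest mean on day 2, the 4 ATP-citrate lyase genes had their lowest mean on day 2, and the ER body genes and the last group were lower on day 4 than on day 2.

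Other genes were lower on day 2 than on day 0 and lower still later. Of the 13 beta-glucosidase and ER body genes 6 were called lower on day 2 than on day 0 and higher than on the later days. In all, 8 of the group were higher on day 2 than later, with NAI1 and BGLU44 among them, and 3 lower (median 0.86). NAI2 had day means of 1533, 417, 90.0, 104, 214 and 221 (1.54 ± 0.15, adjusted p = 3.40e-06). PUB23 (2.02 ± 0.13), CML43, a calmodulin-like protein (2.36 ± 0.14), EXO (2.21 ± 0.15), UGT76B1 (2.03 ± 0.21) and ALDH2C4 (2.33 ± 0.25) were likewise above the mean of the later days, so that day 2 lay between day 0 and the later days. EXPA9, at 4.01 ± 0.16, showed the same order with means of 647 on day 0, 205 on day 2 and 13.1 on day 4.

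Some genes were lower on day 2 than both before and after. ACLA-2 had day means of 229.8, 129, 667, 1060.0, 537 and 320.2, and was -2.20 ± 0.09 relative to the later days (adjusted p = 6.10e-09), and 5 of the 9 genes of its group were lower. Of the 10 genes listed under the breakdown of branched-chain amino acids and lysine 7 were lower on day 2 than later and 0 higher (median -0.84), D2HGDH by -1.39 ± 0.10. Of these, 5 were lower on day 2 than on day 0 as well. Of the plastid photosynthesis genes 29 of 40 were lower on day 2 than later, 7 of them also lower than on day 0. Of the plastid expression genes 10 of 22 were lower on day 2 than later, and 7 of those were higher than on day 0. COR47 was both above day 0 and below the later days (-3.24 ± 0.10, adjusted p = 6.68e-10), as were SIM (-1.27 ± 0.09), PHV (-0.94 ± 0.07) and HCT (-1.33 ± 0.10), so that their day 2 levels lay part of the way to those of the later days.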

How the data were processed

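The deposited table holds signal intensities on a linear scale for 22810 probe sets on 12 ATH1 arrays. The submitters' processing notes name MAS5 as the authors' tool, with no version given in the sources used here. Groups and replicate numbers follow the labels. Leaving out 64 control probe sets left 22746. In the platform annotation 13513 of them had 1 gene (13436 matched to RefSeq), 503 had several and 8730 had none listed, so that those are unnamed here. Where a gene had several tested probe sets, the brightest on average over the 12 arrays (log2) was used.

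Log2 signals of all 12 arrays entered 1 limma model (limma 3.58.1, R 4.3.3; lmFit, eBayes with trend) with a mean for each day and without a block. It had 6 residual degrees of freedom, and the prior added a median of 5.60. P-values are 2-sided and adjusted by Benjamini-Hochberg over 14203 probe sets. The number of arrays limits the precision, and the median standard error of a difference was 0.142. The code was tested on simulated data. Alternatives changed the filter, scaling, variance trend, pseudocount, block and arrays used.

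The comparison and its gene lists were chosen with earlier results of these data known. Of 65 planned lists only 23 had 4 tested genes, so 44 lists were added, mostly from the symbols in the annotation. Some added lists, as for sugar transport and tubulins, covered a theme for which a planned list had enough tested genes. The rule for named genes takes up to 4 called members of a list in its main direction and 2 in the other, the 10 largest rises and falls among genes with no dim array and no overlap, and the 6 largest bounds each way. After values were seen, the same ranking among genes with a symbol, pairs with opposite calls and 28 other genes were added. The text names the rises, falls and bounds over all genes in full and, of the other genes, only some. FDH, planned as an epidermis marker, is formate dehydrogenase in the annotation and was left out of the markers. The planned search for promoter motifs was not run.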

Additional observations from a re-analysis of the deposited data

How the results depend on the processing

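The counts of probe sets called on day 2 against day 0 stayed within 1.5 times of those reported under every alternative run, at 3977 to 5325 higher and 3188 to 4320 lower. Both were lowest with the 60th percentile filter, which tests fewer probe sets. Leaving out 1 array of day 2 or day 0, where the lone array is assumed to vary like the other days, gave 4576 to 4701 higher and 3331 to 3522 lower. Against the later days the counts ran from 3304 to 5486 higher and from 2681 to 4545 lower, also within 1.5 times. The share of higher calls there was 67.2% with centred arrays and 48.2% with no filter, against 53.8% as reported. The median change on day 2 against day 0 over the tested probe sets was 0.068, and became 0.003 with centred arrays and 0.029 after quantile normalization. Deviations of same-numbered arrays from their day means correlated at 0.121 between day 2 and day 0 and at -0.044 to 0.148 over all 15 pairs of days, above 0.1 in 4. The numbers were not taken to pair the arrays, since not every pair passed 0.1. With the replicate number as a block, 5275 were higher and 4038 lower on day 2 against day 0, and 4461 and 3833 against the later days. The block changed no call on a named gene, and gave 5 higher and 18 lower plastid photosynthesis genes, against 3 and 11. Of 297 named genes, 259 kept their side of the threshold in every alternative that tested them, and none reversed. The named genes were mostly picked as called genes with large changes, so their stability does not extend to smaller calls. Of these genes, 17 to 20 lost their call when 1 array of day 2 or day 0 was left out, 7 with only those 4 arrays, and at most 5 under any other setting. Of 88 counts of list members, 14 moved by more than 1.5 times with the 60th percentile filter, 5 to 13 when an array was left out, and at most 3 otherwise. With that filter 4 of 12 UDP-glycosyltransferases were higher, against 9 of 22. The cause was not tested for the other counts that moved. Signals near the 40th percentile limit the dim genes, for which bounds are given.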
